A study of Mus musculus with 12 samples.

Results

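The prostaglandin and leukotriene pathway was followed through 10 genes, taken by symbol from the 12960 genes of the count table: the phospholipase genes Pla2g4a and Pla2g7, the prostaglandin synthesis genes Ptgs1, Ptgs2 and Ptges, the leukotriene synthesis genes Alox5, Alox5ap and Ltc4s, and the receptor genes Cysltr1 and Ptger4. RNA sequencing was done on bone marrow-derived macrophages (BMDMs), primary cells grown from mouse marrow for 7 days in L929 medium, which supplies M-CSF. Marrow came from wildtype (WT) or AMPKβ1 knockout (AMPKβ1-/-) mice, and the ages and strain of the mice were not given in the sources used here. For 6 h the cells were given either PF-06409577 (PF), an activator of AMPK complexes that hold the β1 subunit, at 10 μM, or the vehicle, DMSO at 0.1%. The labels do not say whether the wells with PF also held DMSO, so PF and the lack of DMSO cannot be told apart in these values. This gave 4 groups of 3 libraries: WT with vehicle, WT with PF, AMPKβ1-/- with vehicle and AMPKβ1-/- with PF. The labels do not say whether the libraries of a group come from separate mice or cultures, so p-values measure only the spread between these samples, which may be technical.

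Prostaglandins and leukotrienes are lipid mediators made from arachidonic acid, which phospholipase A2 enzymes release from membranes. Cyclooxygenases turn it into prostaglandin H2, the precursor of prostaglandin E2 and of the other prostanoids. Alternatively, 5-lipoxygenase, helped by its activating protein FLAP, turns it into leukotriene A4, from which leukotriene C4 synthase makes the cysteinyl leukotrienes. Macrophages both make these mediators and carry receptors for them, and the inducible cyclooxygenase is best known for its rise after an inflammatory stimulus, which these cells did not receive.

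The promoters of Ptger4, Ptgs1 and Ltc4s are shown, genes picked by their transcript levels, which are described further on. Under both treatments their libraries did not overlap between genotypes and the test was passed, upward for Ptger4 and Ptgs1 and downward for Ltc4s. Cysltr1 met both as well, while Pla2g7 libraries did not overlap but its test with vehicle was not passed. Each sequence runs from 250 bases before to 50 bases after the transcription start in RefSeq (GRCm38.p6), on the strand of the gene: Ptger4 at chr15:5244138-5244437 (minus strand, 67% GC), Ptgs1 at chr2:36230176-36230475 (plus strand, 50.7% GC) and Ltc4s at chr11:50238483-50238782 (minus strand, 58.7% GC). RefSeq promoters were matched for 8 of the 10 genes, without Cysltr1 and Alox5ap. Capitals mark the letters searched on both strands, the GC box GGGCGG in Ptger4 and the PU.1 core GAGGAA in Ptgs1 and Ltc4s.
Ptger4: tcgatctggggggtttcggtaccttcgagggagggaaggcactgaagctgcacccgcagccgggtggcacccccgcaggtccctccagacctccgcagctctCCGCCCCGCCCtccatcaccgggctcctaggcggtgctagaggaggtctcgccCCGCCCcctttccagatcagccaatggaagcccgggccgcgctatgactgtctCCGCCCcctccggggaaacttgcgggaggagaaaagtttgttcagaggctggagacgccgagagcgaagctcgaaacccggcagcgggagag
Ptgs1: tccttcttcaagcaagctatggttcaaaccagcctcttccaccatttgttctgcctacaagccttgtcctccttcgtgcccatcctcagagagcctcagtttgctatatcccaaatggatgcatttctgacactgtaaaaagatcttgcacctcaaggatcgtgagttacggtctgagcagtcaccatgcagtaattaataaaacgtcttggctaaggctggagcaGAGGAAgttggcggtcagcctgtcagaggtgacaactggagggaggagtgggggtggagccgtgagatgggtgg
Ltc4s: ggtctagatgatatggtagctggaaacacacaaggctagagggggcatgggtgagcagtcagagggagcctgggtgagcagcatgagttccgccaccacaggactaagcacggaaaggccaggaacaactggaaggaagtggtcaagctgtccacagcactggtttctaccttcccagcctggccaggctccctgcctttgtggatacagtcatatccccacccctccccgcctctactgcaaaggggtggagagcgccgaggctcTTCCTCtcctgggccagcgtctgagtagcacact

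Ptger4 held 4 GC boxes, a pair of which share bases, and 0 PU.1 cores, while Ptgs1 and Ltc4s held 0 GC boxes and 1 PU.1 core each. Of the other matched members, Ptges held 2 GC boxes and 1 PU.1 core, and Alox5 and Ptgs2 held 1 of each. Pla2g7 held 1 GC box and 0 PU.1 cores, and Pla2g4a 0 of either. Among 32851 promoters of this length, 35.7% held a GC box and 28.3% a PU.1 core. The median GC content of these promoters was 52.7%. A match of these letters is a description of the sequence and not a binding site.

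The libraries held 8935609 to 14358180 counts. A count of 0 allows up to 3 counts, a floor of 0.196 to 0.321 CPM (counts scaled to a common library size and normalized by TMM) that covers counting error only. Prkab1, which encodes AMPKβ1, lay between 37.3 and 45.3 CPM in the WT libraries and between 6.05 and 9.42 CPM in the AMPKβ1-/- libraries. All 8 macrophage markers were present, with summed levels of 24569 to 28680 CPM over the 4 groups. Of 8 mast cell and basophil markers only Kit and Hdc were in the table, together 3.09 to 5.08 CPM in WT with PF, 1.75 to 2.39 CPM in WT with vehicle and at most 1.41 CPM in AMPKβ1-/- libraries. Of 6 fibroblast markers 5 were present, together 2.02 to 8.66 CPM in AMPKβ1-/- with vehicle and at most 2.12 CPM elsewhere, and Col3a1, Dcn and Pdgfra reached 0 counts in at least 1 library. Neutrophil, dendritic cell and lymphoid markers summed to at most 1.39, 1.46 and 0.187 CPM. The part of these other cells in the results was not tested, and in such bulk samples fewer cells of a type and less RNA per cell cannot be told apart.

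The libraries also differed by base composition, along the genotype and, within WT, in part along the treatment. The slope of log2 CPM on the GC content of a gene's transcripts was 0.37 to 0.75 per 10 percentage points in WT with vehicle, −0.055 to 0.39 in WT with PF, −0.37 to −0.11 in AMPKβ1-/- with vehicle and −0.54 to −0.35 in AMPKβ1-/- with PF. The members span this range, from Cysltr1 with 36.6% GC, at percentile 0.223 of the genes tested, and Pla2g4a with 43.1%, to Ltc4s with 60.7%, at percentile 97.7. Ptger4 with 48.2%, Ptgs1 with 51.2% and Alox5ap with 52.3% lie near the median of 50.1%. Fold changes are therefore given also after each library's trend in GC content and length was removed. Library size alone in place of TMM shifted the median log2 fold change of all genes by 0.21 for AMPKβ1-/- against WT with vehicle and by 0.15 with PF, and removal of the GC and length trend shifted it by 0.14 and 0.11. Of all genes, 3216 were higher and 3249 lower in AMPKβ1-/- than in WT with vehicle under TMM, 4296 and 1600 under library size alone, and 2793 and 1075 with the trend removed. With PF the same counts were 2613 and 2481, 3444 and 1359, and 3046 and 1396, and for PF against vehicle in WT they were 756 and 969, 1045 and 587, and 417 and 251.

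Levels were compared between genes per kilobase of the median annotated transcript. Alox5ap, which encodes FLAP, was the highest member in every group, with means from 583 to 717 CPM per kb. In WT with vehicle, Ptgs1 followed with 41.6 ± 5.06 CPM per kb (SD, n = 3) and Pla2g7 with 37.5 ± 1.81, and the libraries of these 2 genes overlapped. Below them stood Ltc4s (23.4 ± 3.60), Ptger4 (11.6 ± 1.24), Ptges (6.03 ± 1.27), Alox5 (2.28 ± 0.327), Pla2g4a (1.64 ± 0.242) and Cysltr1 (0.498 ± 0.284), each with libraries that did not overlap those of the next gene. In AMPKβ1-/- with vehicle the order differed: Ptger4, at 21.6 ± 2.76 CPM per kb, stood above Ltc4s, at 13.2 ± 1.10, and Cysltr1, at 2.55 ± 0.607, stood above Alox5, at 1.51 ± 0.205. The order of 2 genes rests on transcript lengths and can change with the isoforms that are expressed. These lengths were 3312 bases for Ptger4 and 622 for Ltc4s. In CPM Ptger4 stood above Ltc4s with vehicle in WT (38.4 against 14.6) as well as in AMPKβ1-/- (71.4 against 8.23). Cysltr1 and Alox5 changed order in CPM too (1.54 against 4.15 in WT, 7.91 against 2.74 in AMPKβ1-/-).

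Ptgs2, the inducible cyclooxygenase, had 0 to 3 counts in each of the 12 libraries, at or under the floor, so no fold change is given for it. It was the 1 member that did not pass the filter on low counts, and the other 9 were tested. Its neighbour Pla2g4a, 138.7 kb away on chromosome 1, had 22 to 86 counts.

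**Figure D1:**
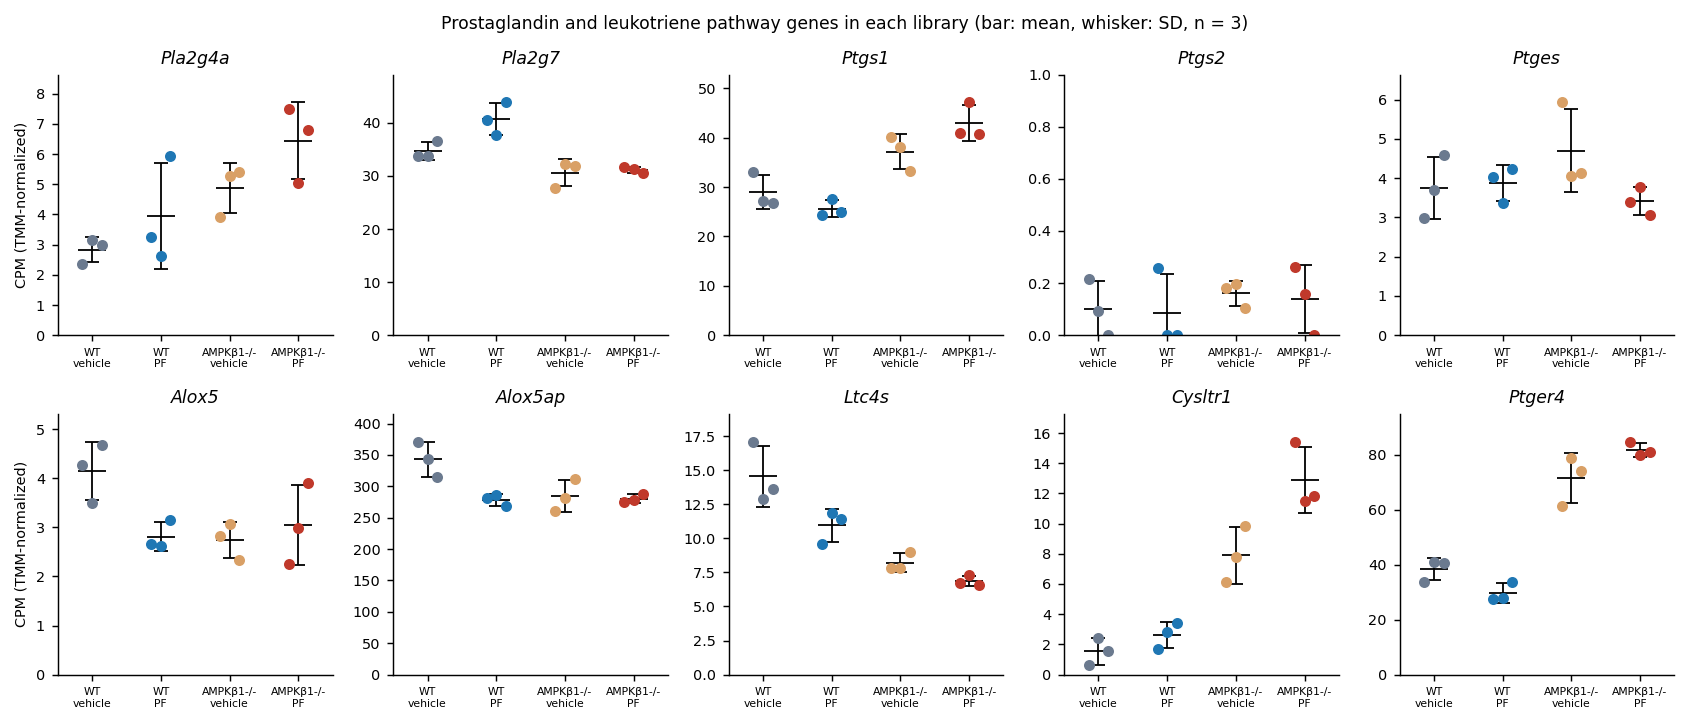
Level of each of the 10 members (y axis, CPM normalized by TMM, starting at 0 with its own scale for each gene) in the 12 libraries by group (x axis); points are libraries, the horizontal bar is the mean and the whisker the SD (n = 3). Cysltr1 lies between 0.641 and 2.40 CPM in WT with vehicle and between 11.5 and 15.4 CPM in AMPKβ1-/- with PF, Ltc4s runs the other way, and Ptgs2 is at most 0.261 CPM in all libraries.

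The comparison of AMPKβ1-/- with WT BMDMs sets the genotypes side by side, first without PF. Genotype and the GC trend of the libraries run together, so their parts in a difference cannot be told apart. The 2 receptors, Cysltr1 and Ptger4, were higher in AMPKβ1-/- BMDMs with vehicle, by 4.96-fold and 1.86-fold. With the GC and length trend removed the log2 fold change went from 2.31 to 0.79 for Cysltr1 and from 0.89 to 0.81 for Ptger4. Pla2g4a, higher as well (log2 0.78), then no longer passed (log2 0.10). The leukotriene synthesis genes Ltc4s, Alox5 and Alox5ap were lower, though the sign for Alox5ap turned once the GC and length trend was removed and none of the 3 then passed as lower. With vehicle 7 of the 9 tested members passed the test (adjusted p below 0.05), 4 of them higher (Cysltr1, Ptger4, Pla2g4a and Ptgs1) and 3 lower. Among all 10822 genes tested 59.7% passed, so the count is near the background. The libraries of the genotypes did not overlap for 8 of the 9, against 62.9% of all genes. The median log2 fold change of the 9 members was 0.31, and that of all genes −0.026. Of all genes 29.7% passed as higher and 30.0% as lower. Cysltr1, Ptger4 and Ltc4s were DEGs, with a log2 fold change beyond 0.8 as well, as were 17.8% of all genes.

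Cysltr1 encodes a receptor for the cysteinyl leukotrienes. In WT with vehicle its 3 libraries held 0.641, 2.40 and 1.59 CPM, from 6, 26 and 16 counts. In AMPKβ1-/- with vehicle they held 6.11, 7.76 and 9.86 CPM, from 67, 119 and 93 counts. Every AMPKβ1-/- library lay above every WT library, and the level was 4.96-fold higher (log2 fold change 2.31, SE 0.33, adjusted p = 0.000104). With PF the WT libraries held 1.72, 2.81 and 3.38 CPM and the AMPKβ1-/- libraries 15.4, 11.5 and 11.8 CPM, a 4.85-fold difference (log2 2.28, SE 0.29, adjusted p = 3.33e-05). Removal of the GC and length trend brought the difference down to 1.72-fold with vehicle (log2 0.79, adjusted p = 0.0234) and to 1.39-fold with PF (log2 0.47, adjusted p = 0.0766), where the call was lost. Leaving out single libraries gave log2 fold changes of 1.96 to 2.79 with vehicle and 2.05 to 2.52 with PF. Cysltr1 overlaps Gm5127, with 0 shared exonic bases and 0 to 7 counts per library.

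Ptger4 encodes the prostaglandin E2 receptor EP4, which signals through cAMP. WT libraries with vehicle held 33.7, 41.1 and 40.5 CPM, and AMPKβ1-/- libraries 61.3, 78.9 and 74.1 CPM. The groups did not overlap, and the level was 1.86-fold higher in AMPKβ1-/- (log2 0.89, SE 0.11, adjusted p = 4.27e-05). With PF the WT libraries held 27.4, 27.9 and 33.7 CPM and the AMPKβ1-/- libraries 84.8, 79.8 and 81.0 CPM, a 2.75-fold difference (log2 1.46, SE 0.11, adjusted p = 4.87e-07). Unlike Cysltr1, Ptger4 kept most of this difference without the GC and length trend, at log2 0.81 with vehicle (adjusted p = 5.62e-05) and 1.41 with PF (adjusted p = 5.62e-08). Its gene shares 82 of 6648 exonic bases with Ttc33 on the opposite strand, which was also higher in AMPKβ1-/- BMDMs with vehicle (log2 0.94, adjusted p = 0.000797). The library kit was stranded, and the strand setting of the quantification is not given in the sources used here.

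Ptgs1, the constitutive cyclooxygenase, held 33, 27.2 and 26.7 CPM in WT with vehicle and 40.2, 38.0 and 33.3 CPM in AMPKβ1-/- with vehicle. The highest WT and the lowest AMPKβ1-/- library were nearly level, and the fold change was 1.29 (log2 0.36, SE 0.11, adjusted p = 0.0113). With PF it held 24.4, 27.6 and 24.8 CPM in WT and 40.9, 47.1 and 40.7 CPM in AMPKβ1-/-, a gap of 1.68-fold (log2 0.75, SE 0.11, adjusted p = 0.000106). With the GC and length trend removed the differences were larger, at log2 0.68 (adjusted p = 0.000102) and 1.06 (adjusted p = 3.83e-07). Ptges, the inducible prostaglandin E synthase that acts after the cyclooxygenases, held 2.99, 3.69 and 4.58 CPM in WT and 5.93, 4.04 and 4.14 CPM in AMPKβ1-/- with vehicle. Its groups overlapped and it did not pass (log2 0.31, 95% interval −0.14 to 0.77, adjusted p = 0.22), although it did with the trend removed (log2 0.76, adjusted p = 0.0105).

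The 3 leukotriene synthesis genes were lower under TMM. Ltc4s, leukotriene C4 synthase, held 17.1, 12.9 and 13.6 CPM in WT with vehicle and 7.84, 7.83 and 9.01 CPM in AMPKβ1-/- with vehicle. No libraries overlapped, and the AMPKβ1-/- level was 0.564 times that of WT (log2 −0.83, SE 0.15, adjusted p = 0.000305). With PF it held 9.60, 11.9 and 11.5 CPM in WT and 6.71, 7.30 and 6.60 CPM in AMPKβ1-/- (log2 −0.67, SE 0.15, adjusted p = 0.00212). Neither difference passed with the GC and length trend removed (log2 −0.24, adjusted p = 0.216, and −0.29, adjusted p = 0.143). Of the mast cell markers, which are listed because such cells also express Ltc4s, Kit and Hdc together were at 1.75 to 2.39 CPM in WT and 0.729 to 1.37 CPM in AMPKβ1-/- with vehicle, the same order as Ltc4s. With PF they were at 3.09 to 5.08 CPM in WT and 0.930 to 1.41 CPM in AMPKβ1-/-, again in the order of Ltc4s between genotypes, while within WT they were higher with PF and Ltc4s was not. Their part in the Ltc4s values was not tested.

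Alox5, the 5-lipoxygenase, was rare. It held 4.28, 3.51 and 4.68 CPM in WT and 2.83, 3.06 and 2.33 CPM in AMPKβ1-/- with vehicle, from 22 to 47 counts a library. The groups did not overlap (log2 −0.58, SE 0.23, adjusted p = 0.0378), but the call was lost under DESeq2 (adjusted p = 0.0935), upper quartile scaling (0.062), library size alone (0.186), a fit to the 6 libraries compared (0.0519) and the removed GC and length trend (0.557), and without any 1 of 5 of the 6 libraries compared: WT vehicle 1 (0.0853) or 3 (0.121), or AMPKβ1-/- vehicle 1 (0.0628), 2 (0.0527) or 3 (0.118). Alox5ap held 371, 343 and 314 CPM in WT and 261, 282 and 311 CPM in AMPKβ1-/- with vehicle (log2 −0.27, SE 0.081, adjusted p = 0.01). The call for Alox5ap was lost without WT vehicle library 1 (log2 −0.21, adjusted p = 0.051) and under library size alone (log2 −0.057, adjusted p = 0.529), and the sign turned with the trend removed (log2 0.10, adjusted p = 0.3). With PF the genotypes did not differ by the test for Alox5 (log2 0.11, 95% interval −0.38 to 0.60) or Alox5ap (log2 0.0070, 95% interval −0.17 to 0.18), and with the trend removed Alox5ap was higher in AMPKβ1-/- (log2 0.39, adjusted p = 0.000496).

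Of the phospholipases, Pla2g4a encodes the cytosolic enzyme that releases arachidonic acid. It held 2.35, 3.14 and 2.99 CPM in WT and 3.92, 5.28 and 5.41 CPM in AMPKβ1-/- with vehicle. Every AMPKβ1-/- library was higher (log2 0.78, SE 0.29, adjusted p = 0.0286), but with the GC and length trend removed the difference was log2 0.10 (adjusted p = 0.763). The call was also lost without WT vehicle library 1 (adjusted p = 0.0971) or 3 (0.0542), or without AMPKβ1-/- vehicle library 2 (0.0914) or 3 (0.0767). Pla2g7 encodes a secreted phospholipase that breaks down platelet-activating factor. It held 33.7, 33.8 and 36.6 CPM in WT and 27.7, 32.3 and 31.9 CPM in AMPKβ1-/- with vehicle. Its libraries did not overlap, yet the test was not passed (log2 −0.18, 95% interval −0.38 to 0.024, adjusted p = 0.117), and the sign turned under library size alone (log2 0.031).

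With PF in both genotypes 6 of the 9 members passed, Cysltr1, Ptger4, Ptgs1 and Pla2g4a higher and Ltc4s and Pla2g7 lower in AMPKβ1-/- BMDMs, against 47.1% of all genes, 24.1% higher and 22.9% lower. Cysltr1 and Ptger4 were DEGs, as were 14.3% of all genes. The libraries did not overlap for 5 of the 9, against 59.9% of all genes. Pla2g7 held 40.6, 37.7 and 43.8 CPM in WT and 31.6, 31.3 and 30.6 CPM in AMPKβ1-/- (log2 −0.39, SE 0.094, adjusted p = 0.00368, and 0.0587 under library size alone). Pla2g4a, with 3.26, 2.62 and 5.92 CPM in WT and 7.49, 5.03 and 6.79 CPM in AMPKβ1-/-, had overlapping libraries (log2 0.68, SE 0.26, adjusted p = 0.0413). Its call was lost with the GC and length trend removed (log2 0.22, adjusted p = 0.401), in a fit to the 6 libraries compared (0.0803) and without WT PF library 1 or 2 or AMPKβ1-/- PF library 1 or 3 (adjusted p of 0.105 to 0.168). It was also lost, with adjusted p of 0.0503 to 0.0512, without WT vehicle library 3 or AMPKβ1-/- vehicle library 2 or 3, which are not in this comparison. Ptges did not pass (log2 −0.18, 95% interval −0.65 to 0.28, and 0.18 with the trend removed).

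**Figure D2:**
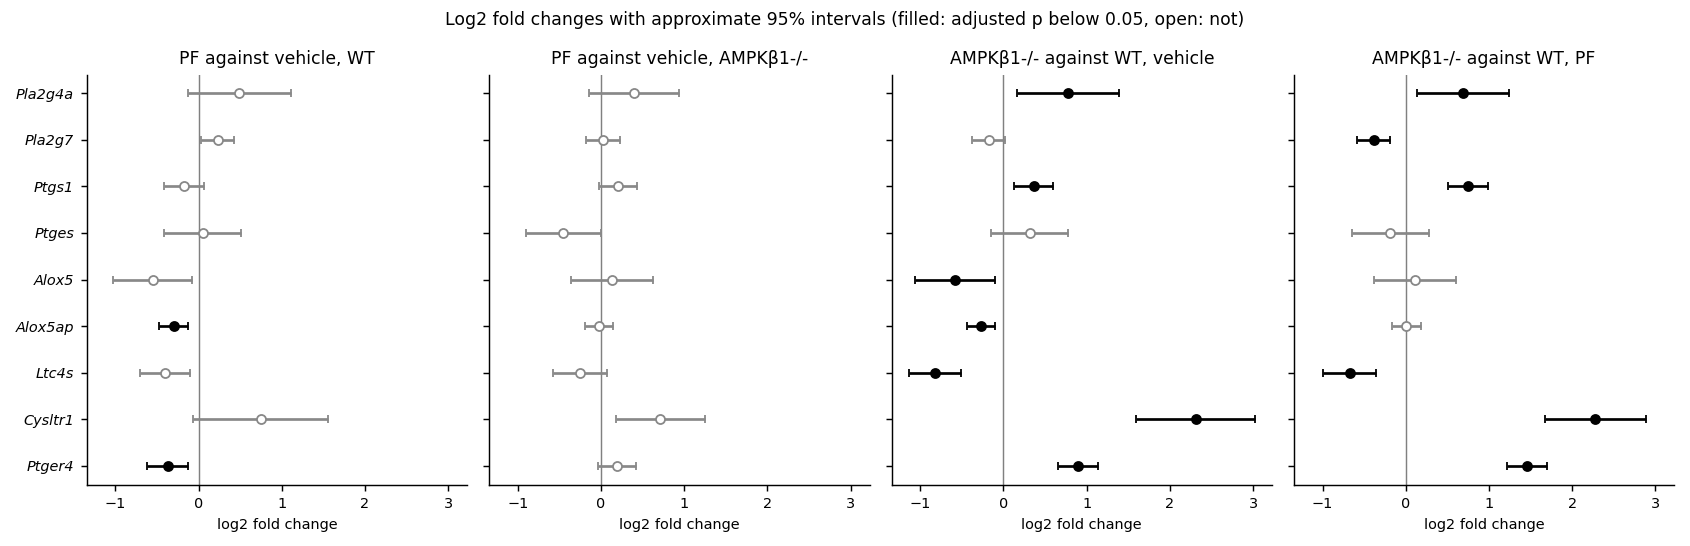
Log2 fold changes (x axis) of the 9 tested members (y axis) in 4 comparisons, with approximate 95% intervals; filled points passed at an adjusted p below 0.05 and open points did not. Between genotypes Cysltr1 is at 2.31 with vehicle and 2.28 with PF, and for PF against vehicle only Alox5ap and Ptger4 in WT are filled, both below 0.

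**Figure D3:**
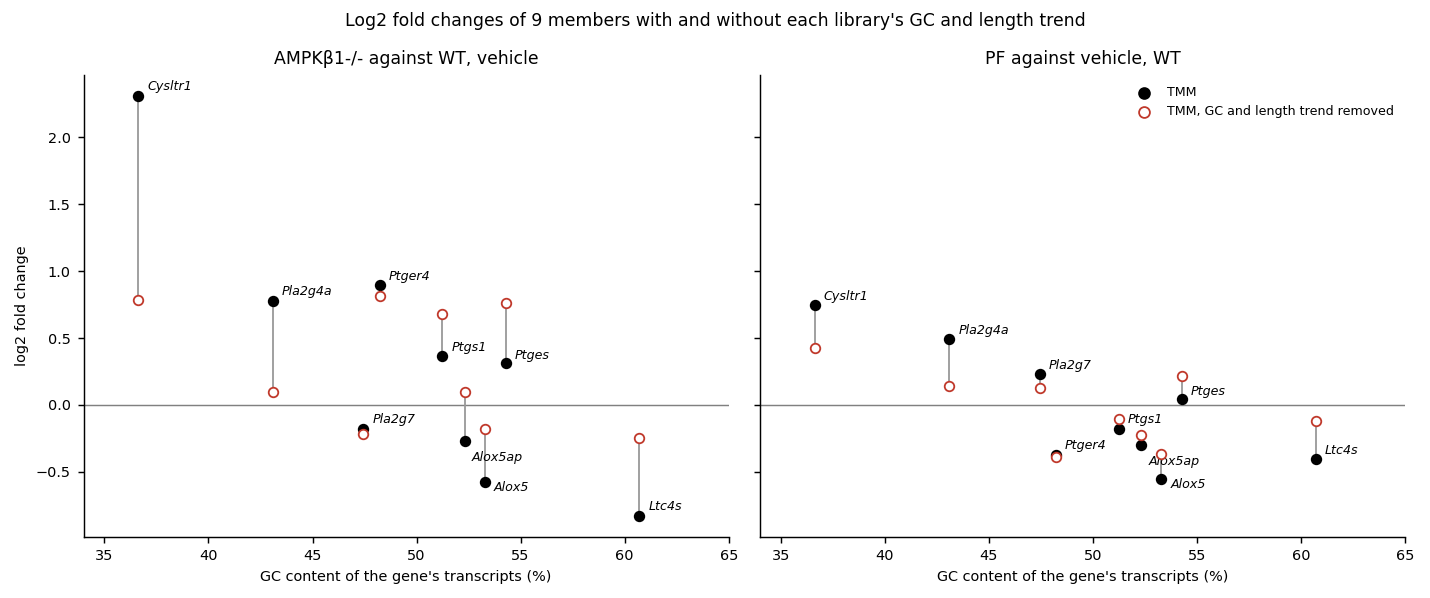
Log2 fold changes of the 9 tested members (y axis) against the GC content of their transcripts in percent (x axis), for AMPKβ1-/- against WT with vehicle (left) and PF against vehicle in WT (right); filled points are under TMM and open points with each library's GC and length trend removed. On the left Cysltr1 drops from 2.31 to 0.79 and Pla2g4a from 0.78 to 0.10, whereas Ptger4 moves only from 0.89 to 0.81.

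The comparison of PF with vehicle sets the treatments side by side within each genotype. A difference may come from PF or from a lack of DMSO, as stated at the start. In WT BMDMs Alox5ap and Ptger4 were lower with PF than with vehicle, each by less than the fold a DEG needs. No member passed as higher. Both calls were lost once the AMPKβ1-/- libraries were left out of the fit. No member passed the main test of the interaction, which is given below. Of the 9 tested members 2 passed, both lower, against 15.9% of all genes in either direction, 8.95% lower and 6.99% higher. The number of DEGs was 0 of 9, against 1.52% of all genes. The libraries of the treatments did not overlap for 4 members, against 32.2% of all genes. The median log2 fold change was −0.18 for the members and 0.0048 for all genes. Within WT the slope on GC content ran lower with PF (−0.055 to 0.39) than with vehicle (0.37 to 0.75), with overlap. The parts of PF and of this GC trend in a difference cannot be told apart. With the GC and length trend removed 6.17% of all genes passed for PF in WT.

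Alox5ap fell from 371, 343 and 314 CPM with vehicle to 282, 286 and 268 CPM with PF. No libraries overlapped, and the level with PF was 0.813 times that with vehicle (log2 −0.30, SE 0.081, adjusted p = 0.0251). The call was lost without WT vehicle library 1 (adjusted p = 0.0997) and without WT PF library 2 (0.0691) or 3 (0.122), as well as under library size alone (0.0595), in a fit to the 6 WT libraries (0.092) and after removal of the GC and length trend (log2 −0.22, adjusted p = 0.084).

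Ptger4 fell from 33.7, 41.1 and 40.5 CPM to 27.4, 27.9 and 33.7 CPM. The lowest vehicle library and the highest PF library were level, and the ratio was 0.773 (log2 −0.37, SE 0.12, adjusted p = 0.0425). With the trend removed the value was log2 −0.39 (adjusted p = 0.0342). The call was near the threshold: it was lost under library size alone (adjusted p = 0.134), upper quartile scaling (0.0632), no filter (0.053), limma-voom (0.054) and a fit to the 6 WT libraries (0.104). It was also lost without WT vehicle library 2 (0.0918) or 3 (0.118), WT PF library 1 (0.0717), 2 (0.132) or 3 (0.0506), AMPKβ1-/- vehicle library 3 (0.0562) or AMPKβ1-/- PF library 1 (0.0583), 2 (0.0575) or 3 (0.06). Ttc33, on the opposite strand, had a log2 fold change of 0.49 (adjusted p = 0.0937), of the other sign.

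The remaining members did not pass in WT. Ltc4s, at 17.1, 12.9 and 13.6 CPM with vehicle and 9.60, 11.9 and 11.5 CPM with PF, had a log2 fold change of −0.40 (95% interval −0.71 to −0.10, adjusted p = 0.0627). It passed without WT vehicle library 2 (adjusted p = 0.0423) and was at log2 −0.12 with the trend removed. Alox5, with every PF library below every vehicle library, had a log2 fold change of −0.55 (95% interval −1.03 to −0.074, adjusted p = 0.0967). Pla2g7 was the 1 member with every PF library above every vehicle library (log2 0.23, 95% interval 0.033 to 0.43, adjusted p = 0.0944, and 0.0458 under library size alone). Cysltr1 libraries overlapped, with a log2 fold change of 0.74 (95% interval −0.071 to 1.56, adjusted p = 0.176). Pla2g4a (log2 0.49), Ptgs1 (−0.18) and Ptges (0.048) had adjusted p of 0.238 to 0.889.

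In AMPKβ1-/- BMDMs 0 of the 9 members passed by edgeR's quasi-likelihood test, against 0.0554% of all genes (6, all higher). By DESeq2 and limma-voom 0 members passed as well, against 0.453% and 0.249% of all genes. At an unadjusted p below 0.05 there was 1 member, Cysltr1, against 4.98% of all genes. It held 6.11, 7.76 and 9.86 CPM with vehicle and 15.4, 11.5 and 11.8 CPM with PF. Every PF library was higher, by 1.64-fold on average (log2 0.71, SE 0.25, adjusted p = 0.674). Without the trend in GC content and length the difference was log2 0.11. The libraries of the treatments did not overlap for 5 of the 9 members, against 14.5% of all genes: Cysltr1, Ptger4 (log2 0.19, 95% interval −0.036 to 0.43) and Ptgs1 (0.21, −0.025 to 0.44) were above, and Ptges (−0.45, −0.91 to 0.0034) and Ltc4s (−0.25, −0.58 to 0.077) were below. For Alox5ap, which passed in WT, the log2 fold change here was −0.023 (95% interval −0.20 to 0.15).

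The difference between the PF responses, WT minus AMPKβ1-/-, was tested as an interaction. By edgeR's quasi-likelihood test 0 of the 9 members passed, against 0.416% of all genes. By DESeq2 and limma-voom 0 members passed as well, against 1.76% and 0.397% of all genes. At an unadjusted p below 0.05 there were 3 members, against 14.3% of all genes: Ptger4 (log2 −0.57, SE 0.16, adjusted p = 0.14), Ptgs1 (−0.38, SE 0.16, adjusted p = 0.291) and Alox5ap (−0.28, SE 0.11, adjusted p = 0.297). For Ptger4 the responses were −0.37 in WT and 0.19 in AMPKβ1-/- BMDMs. This difference passed with the GC and length trend removed (log2 −0.60, adjusted p = 0.047), and over the other alternatives its adjusted p ran from 0.0583 under DESeq2 to 0.306 without WT PF library 2. For Cysltr1 the responses under TMM were 0.74 in WT and 0.71 in AMPKβ1-/-, with a 95% interval of −0.86 to 0.93 for their difference, and with the trend removed they were 0.42 and 0.11 (adjusted p of the difference 0.764). Each group of libraries enters 3 of the 5 comparisons, so the comparisons are not independent.

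Beyond the members, 57 other genes of the pathway were listed, of which 42 were in the table and 30 tested. In WT BMDMs with PF 1 of these rose, 7 fell and 22 did not pass, against 6.99% of all genes higher and 8.95% lower. The median log2 fold change was −0.17. The riser was Ptafr, the receptor for the platelet-activating factor that Pla2g7 breaks down, from 251 ± 6.77 to 314 ± 15 CPM (SD, n = 3, log2 0.32, adjusted p = 0.0081). Those that fell were Cotl1, a binding partner of 5-lipoxygenase, from 1241 ± 135 to 993 ± 66 CPM (log2 −0.32, adjusted p = 0.0234), Dpep2, a dipeptidase of cysteinyl leukotrienes, from 432 ± 38.9 to 333 ± 25.9 CPM (log2 −0.38, adjusted p = 0.0116), Abcc1, which exports leukotriene C4, from 242 ± 21.5 to 189 ± 9.82 CPM (log2 −0.36, adjusted p = 0.0172) and Cyp4f18, which inactivates leukotriene B4, from 19.7 ± 3.22 to 12.1 ± 1.80 CPM (log2 −0.70, adjusted p = 0.0137), together with Tbxas1, thromboxane A synthase (log2 −0.37), Cyp4f16, a cytochrome P450 (−0.39), and Pla2g15, the lysosomal phospholipase A2 (−0.36). With the GC and length trend removed 6 of the 30 passed, and Cotl1 (log2 −0.016), Pla2g15 (−0.12) and Cyp4f16 (−0.23) did not. The 6 include Hpgd, which passed as lower only with the trend removed (log2 −0.42, adjusted p = 0.0239). A fit to the 6 WT libraries left 1, Cyp4f18, and 1, 3 or 13 genes passed when the PF library numbered 3, 2 or 1 of WT was left out, and 2 without the WT vehicle library numbered 1.

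In AMPKβ1-/- BMDMs PF passed the test for 0 of these 30 genes by edgeR's quasi-likelihood test, with 1 at an unadjusted p below 0.05. The interaction also passed for 0, with 7 at an unadjusted p below 0.05, and Dpep2 passed it with the GC and length trend removed (log2 −0.34, adjusted p = 0.0488). Between genotypes with vehicle 4 were higher and 14 lower in AMPKβ1-/-. Only their total was at the background, 59.7% of all genes in either direction. The split leaned to lower, while of all genes 29.7% were higher and 30.0% lower. The median log2 fold change was −0.30, and under library size alone 7 were higher and 9 lower. The lower genes included Cyp4f18 (log2 −0.99, adjusted p = 0.000213), Ptges2, a prostaglandin E synthase (log2 −0.74, adjusted p = 0.000139), Cotl1 (−0.64), Pla2g15 (−0.61) and Dpep2 (−0.48). With the trend removed Cyp4f18 (log2 −0.47, adjusted p = 0.0116) and Ptges2 (−0.24, adjusted p = 0.0292) still passed, and Cotl1 (−0.071), Pla2g15 (−0.14) and Dpep2 (−0.14) did not. No listed eicosanoid receptor passed under TMM, and the one with the smallest p, the prostacyclin receptor Ptgir, had a log2 fold change of 0.46 (adjusted p = 0.0874), although it passed with the trend removed (log2 0.76, adjusted p = 0.0173). The 4 higher genes, named after their values were seen, were Ptges3 (log2 0.99), the prostaglandin D synthase gene Hpgds (0.97), and Hpgd (0.59) and Ptgr2 (0.36), which act in prostaglandin breakdown. All 4 have transcripts of 40.5% to 44.8% GC, and with the trend removed their log2 fold changes were 0.29, 0.0027, −0.42 and −0.075. Ptges3, Hpgds and Ptgr2 then did not pass, and Hpgd passed as lower (adjusted p = 0.00406). With PF 5 of the 30 were higher and 9 lower in AMPKβ1-/-. Their total was at the background of 47.1% in either direction, while of all genes 24.1% were higher and 22.9% lower.

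**Figure D4:**
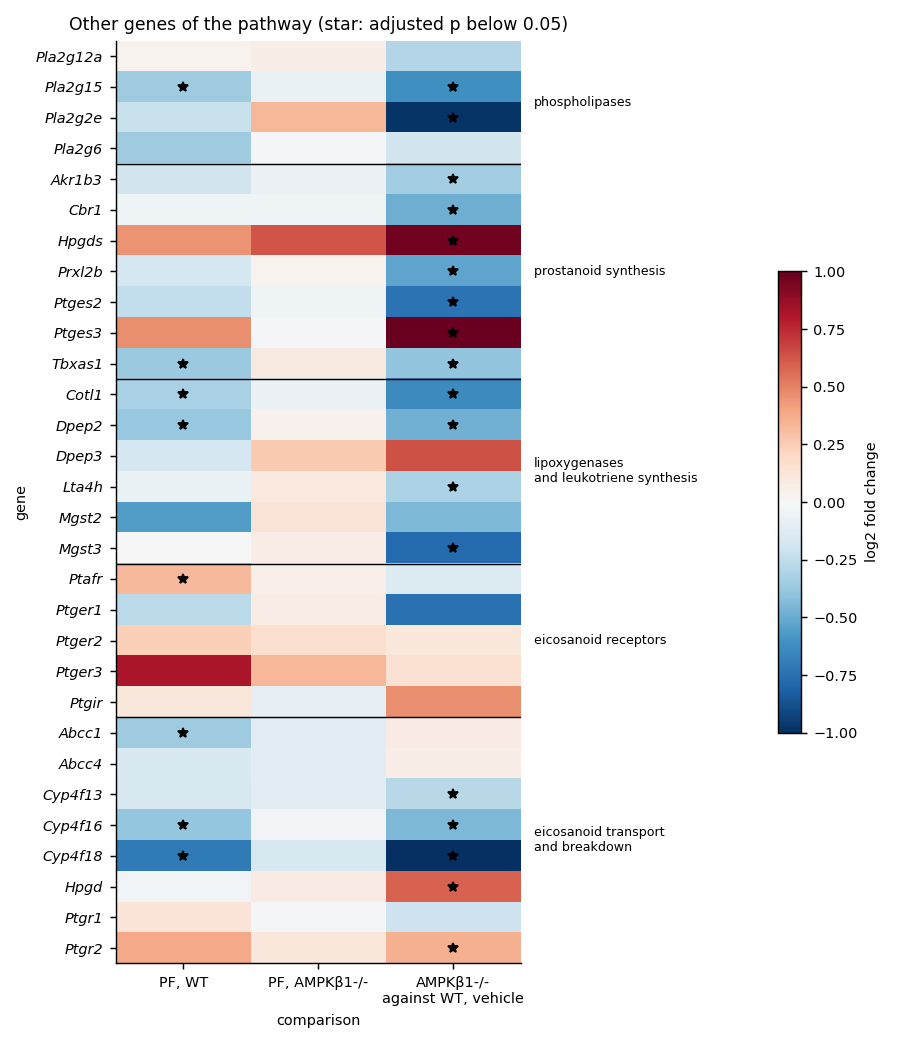
Log2 fold changes (colour, red higher and blue lower) of the 30 tested other pathway genes (y axis, grouped by role) in 3 comparisons (x axis), under TMM; a star marks an adjusted p below 0.05. The middle column, PF in AMPKβ1-/- BMDMs, has 0 stars, while the left column, PF in WT, has 8 and the right column, the genotypes with vehicle, 18.

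Genes outside the members whose log2 CPM followed Cysltr1 most closely over the 12 libraries were Usp16, Gabpa and Marchf7 (Pearson's r of 0.99 for each), and those closest to Ltc4s were Hpcal1, Ifitm2 and Cd300a (0.97, 0.97 and 0.97). They are not singular, since 1761 genes had an r above 0.9 with Cysltr1 and 496 with Ltc4s. Usp16, Gabpa and Marchf7 have 39.6% to 42.9% GC, below the median, and the 12 libraries share the genotype groups and the GC trend, so these values are a description without a p.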

How the data were processed

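Total RNA was extracted with TRIzol and an RNeasy kit and made into stranded libraries (NEBNext Ultra II Directional). After quality control (MultiQC) and trimming (Trim Galore) of the paired-end reads, the authors used Salmon for transcript levels and DESeq2 for DEGs. Versions, genome build and annotation are not given in the sources used here. The deposited table holds whole-number estimated counts without normalization, for 12960 genes in 12 columns whose names give the group. The numbers of libraries are those of the columns.

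The main test was that of edgeR 4.0.16 under R 4.3.3 (robust quasi-likelihood test, TMM, filterByExpr by group, 10822 genes tested, 1 fit of 4 group means to all libraries, Benjamini-Hochberg adjustment). Each SE is approximate, the log2 fold change divided by the root of F, and each 95% interval takes the t quantile at the degrees of freedom of the test. Alternatives used other scalings and filters, DESeq2 1.42.0, limma 3.58.1 (voom), fits to the libraries compared, single libraries left out, and an offset for the GC and length trend (natural splines of 5 degrees of freedom per library). GC content and length came from GENCODE M21 transcripts on GRCm38, matched for 12703 genes by symbol and 194 by another symbol, with 63 unmatched. Scripts were tested on simulated data.

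All 10 members were named whatever their values. Other pathway genes were named when they passed for PF in WT or the interaction, or had the smallest p of their role between genotypes with vehicle. The members and the lists were chosen with earlier results of these data known.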

Additional observations from a re-analysis of the deposited data

How the results depend on the processing

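The labels give no replicate numbers shared between groups, but the columns are numbered 1 to 3 in each group. A replicate block on these numbers, added after seeing the data, left the members passed at 2, 0, 0, 7 and 6 for PF in WT, PF in AMPKβ1-/-, the interaction and the genotypes with vehicle and with PF, changed no call of a named gene, and gave 9 and 18 other pathway genes for PF in WT and the genotypes with vehicle. Over all genes the block gave 889 higher and 1094 lower for PF in WT, against 756 and 969 without it. Of 18 pairs of libraries with the same number, 6 deviated from their group means with a correlation over 0.1 (−0.18 to 0.32 over all pairs) and 6 correlated best with their own number. Among the libraries numbered 1, those of WT with vehicle, WT with PF and AMPKβ1-/- with vehicle correlated at 0.21 to 0.32. With AMPKβ1-/- with PF they correlated at −0.18 to −0.13. Such values cannot show whether libraries with the same number share a source, and the main fit has no block. Of 436 values of members under alternatives other than leaving out a library, 405 kept their direction and side of the threshold, and of 540 values without 1 library 493 did. Many of these values did not pass in the main fit, or lacked a library that is not in the comparison. The shares therefore do not measure how steady the calls were. For PF in WT the calls of Alox5ap and Ptger4 were lost without several single libraries, as given above. The cause of the changes was not tested. Members passed for PF in WT (2) became 1 under upper quartile scaling, library size alone, no filter, limma-voom and the removed GC and length trend, and 0 in a fit to the libraries compared or with a log2 fold change beyond 0.8 as well. The interaction (0) gave 1 with the trend removed. AMPKβ1-/- against WT with vehicle (7) gave 4 with the trend removed and 3 beyond 0.8, and with PF (6) 4 with the trend removed (Alox5ap gained, Cysltr1, Ltc4s and Pla2g4a lost) and 2 beyond 0.8. Of the other pathway genes, PF in WT (8) gave 1 in a fit to the libraries compared and 0 beyond 0.8, and the genotypes with vehicle (18) gave 10 and 4 with the trend removed and beyond 0.8. The 10 are not a subset of the 18. Abcc1, Dpep3, Pla2g6 and Ptgir were gained, and Hpgd passed as lower instead of higher (log2 −0.42, adjusted p = 0.00406). Without single libraries the counts of genes passed ran from 0 to 2, 4 to 7, 5 to 6, 1 to 13 and 15 to 19 for PF in WT, the genotypes with vehicle and with PF, and the other genes in these first 2 comparisons.

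Signs are listed here for the members, Prkab1 and the other pathway genes named by rule. With the trend removed the log2 fold change of these changed sign for Prkab1 (0.060) for PF in WT, for Alox5ap (0.071), Pla2g15 (0.0088), Cotl1 (0.019), Cyp4f16 (0.048) and Ptges2 (0.044) for PF in AMPKβ1-/-, for Pla2g4a (−0.12) and Ltc4s (0.049) in the interaction, for Alox5ap (0.10) between genotypes with vehicle, and for Ptges (0.18), Dpep2 (0.19) and Cyp4f16 (0.23) with PF. Of the rest of the list, Hpgd (−0.42), Ptgr2 (−0.075), Pla2g6 (0.38), Cyp4f13 (0.15), Prxl2b (0.026) and Ptger2 (−0.067) changed sign between genotypes with vehicle. For the other comparisons that rest is not listed. Library size alone turned Pla2g7 (0.031) and Ptafr (0.075) with vehicle and Dpep2 (0.083) and Cyp4f16 (0.061) with PF. Values whose sign turned without a single library ran, for PF in WT, from −0.084 to 0.21 for Ptges and −0.11 to 0.36 for Ptgir. For PF in AMPKβ1-/- they ran from −0.042 to 0.067 for Pla2g7, −0.072 to 0.30 for Alox5, −0.082 to 0.045 for Alox5ap and −0.082 to 0.038 for Cyp4f16. In the interaction they ran from −0.34 to 0.31 for Pla2g4a, −0.31 to 0.51 for Cysltr1 and −0.035 to 0.45 for Ptgir. Between genotypes they ran from −0.011 to 0.16 for Abcc1 with vehicle, and with PF from −0.098 to 0.28 for Alox5, −0.018 to 0.026 for Alox5ap and −0.016 to 0.12 for Tbxas1.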

Other observations

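Of the listed pathway genes 12 were in the table but under the filter on low counts, and their counts over the 12 libraries describe what these BMDMs held little of. The lipoxygenase genes Alox12, Alox15 and Alox8 had 0 to 2 counts per library. The leukotriene B4 receptor genes Ltb4r1 and Ltb4r2 had 0 to 5 and 0 to 3 counts, and the receptor gene Cysltr2, the paralog of Cysltr1, had 2 to 10 counts. Slco2a1, a prostaglandin transporter, had 0 to 3 counts. Among the phospholipases Pla2g4b had 0 to 6, Pla2g4c 0 to 3 and Pla2g5 1 to 10 counts, and Mgll and Ggt5 had 0 to 5 and 2 to 11 counts. Depths of 8935609 to 14358180 counts do not allow a comparison of groups for these genes or for Ptgs2.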
